A study of Mus musculus with 4 samples.

Results

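Interferon response genes were taken as a list of 39 genes that cells switch on after an interferon signal, and were followed over 4 arrays of the mouse preosteoblast line MC3T3-E1. The members were matched by gene symbol, and 37 of the 39 had at least 1 probe set that carried their symbol alone, 62 probe sets of the 45037 on the array that were not controls. Isg15, whose probe set also carried a second symbol, and Ifi44 were not analysed here. Of the 37 genes, 32 had a signal above the detection floor on at least 1 array, against 12503 of 18193 genes in the whole series, and 26 had one on all 4 arrays. The 5 genes at the floor on all 4 arrays were Oas1a, Mx1, Mx2, Rsad2 and Dhx58, with signals from 9.92 to 46.1 for the brightest probe set of each.

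MC3T3-E1 is a line of fibroblast-like cells from the calvaria, the skull cap, of newborn C57BL/6 mice, which can form a mineralised matrix in medium that supplies ascorbate and phosphate. The groups were osteogenic medium at day 6, normal medium at day 6, osteogenic medium at day 3 and normal medium at day 3, with 1 array each. Normal medium was MEM α with 10% fetal bovine serum, and osteogenic medium was the same with ascorbic acid 2-phosphate at 150 µM and beta-glycerophosphate at 10 mM. The labels name no interferon treatment. All 4 cultures were of 1 line, so the arrays say nothing of spread between lines or animals.

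Type I interferons bind the receptor pair of Ifnar1 and Ifnar2, whose kinases Jak1 and Tyk2 phosphorylate STAT proteins. Stat2 joins another STAT protein and Irf9 in the complex ISGF3, which binds the interferon-stimulated response element in the promoters of its target genes. Interferon gamma acts through Ifngr1, Ifngr2, Jak1 and Jak2 and through a different element, the gamma-activated site, and induces Irf1 and many GTPases. Many target genes also keep a low level of expression without infection, and in bone, interferon beta restrains the formation of osteoclasts.

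A level is given as the signal, which is the deposited intensity after each array was scaled to a common 75th percentile. The floor was a signal of 57.8, the median of all probe sets, and a difference against a value at the floor is a bound, written "at least". Differences are on the log2 scale, the first-named array minus the second, and a gene was counted as higher or lower when it passed 2-fold, a log2 difference of 1. For a gene with several probe sets the one of highest mean signal was used, and levels were not compared between genes. Differences between single arrays carry no p-value, since each group had 1 array. The SD of a log2 difference between probe sets of the same gene was 0.350 for the medium difference at day 6, 0.351 for that at day 3, 0.361 for the day difference in osteogenic medium and 0.316 for that in normal medium, which covers probe error only. The ratio of 3′ to 5′ signal of the control Gapdh probe sets was 0.756 to 0.769 on the 4 arrays. The array's 5′ control probe set for 18S ribosomal RNA was at 746 on the osteogenic day 6 array and at 5202 to 9162 on the others, and its part in the differences with that array was not tested.

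The cells carried osteoblast transcripts, and most leukocyte markers were at the floor. All 8 osteoblast markers with a probe set were above the floor on at least 1 array, among them Ibsp, the bone sialoprotein gene, and Sp7, a transcription factor that osteoblasts need to form. Of 10 macrophage and dendritic cell markers, 3 were above the floor on all 4 arrays, namely Csf1r, Fcer1g and Lyz2. Ptprc, the pan-leukocyte gene, had signals of 5.14, 15.7, 1.05 and 14.9 on the osteogenic day 6, normal day 6, osteogenic day 3 and normal day 3 arrays. The summed signal of these 10 markers was 810 in osteogenic and 994 in normal medium at day 6, and 775 in osteogenic and 868 in normal medium at day 3. All 6 lymphocyte markers with a probe set were at the floor on every array. In bulk RNA, fewer cells of a type and less RNA per cell cannot be told apart.

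The interferons themselves were at or near the floor. Of 10 interferon genes with a probe set, 8 were at the floor on all 4 arrays, among them Ifng, with signals of 0.913 to 3.95. Ifnb1, the interferon beta gene, had a signal of 35.4 in osteogenic and 65.2 in normal medium at day 6, and of 21.3 in osteogenic and 71.2 in normal medium at day 3. Both normal medium arrays were thus just above the floor for Ifnb1 and both osteogenic arrays below it, so its medium difference is only bounded, at -0.17 at day 6 and -0.30 at day 3. Ifnz went the other way, with 75.2 in osteogenic and 4.78 in normal medium at day 6, and 92.2 and 84.4 at day 3. Its medium difference was at least 0.38 at day 6 and 0.13 at day 3. Of the 6 receptor genes, 5 were above the floor in every comparison. Ifnar1 ranged from 516 to 619 and Ifnar2 from 1763 to 1936 over the 4 arrays, and Ifngr2 from 1645 to 1873. Ifngr1 had a signal of 1440 in osteogenic and 890 in normal medium at day 6, and 1027 in osteogenic and 680 in normal medium at day 3, so both osteogenic arrays lay above both normal ones, with log2 differences of 0.69 and 0.59. Il10rb, a subunit shared by the receptors of interferon lambda and interleukin-10, lay above zero at both days too, at 0.50 and 0.28. In this receptor list 0 genes passed 2-fold in any comparison (background 0.741% to 4.18% each way), which is near the share over all genes.

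**Figure D1:**
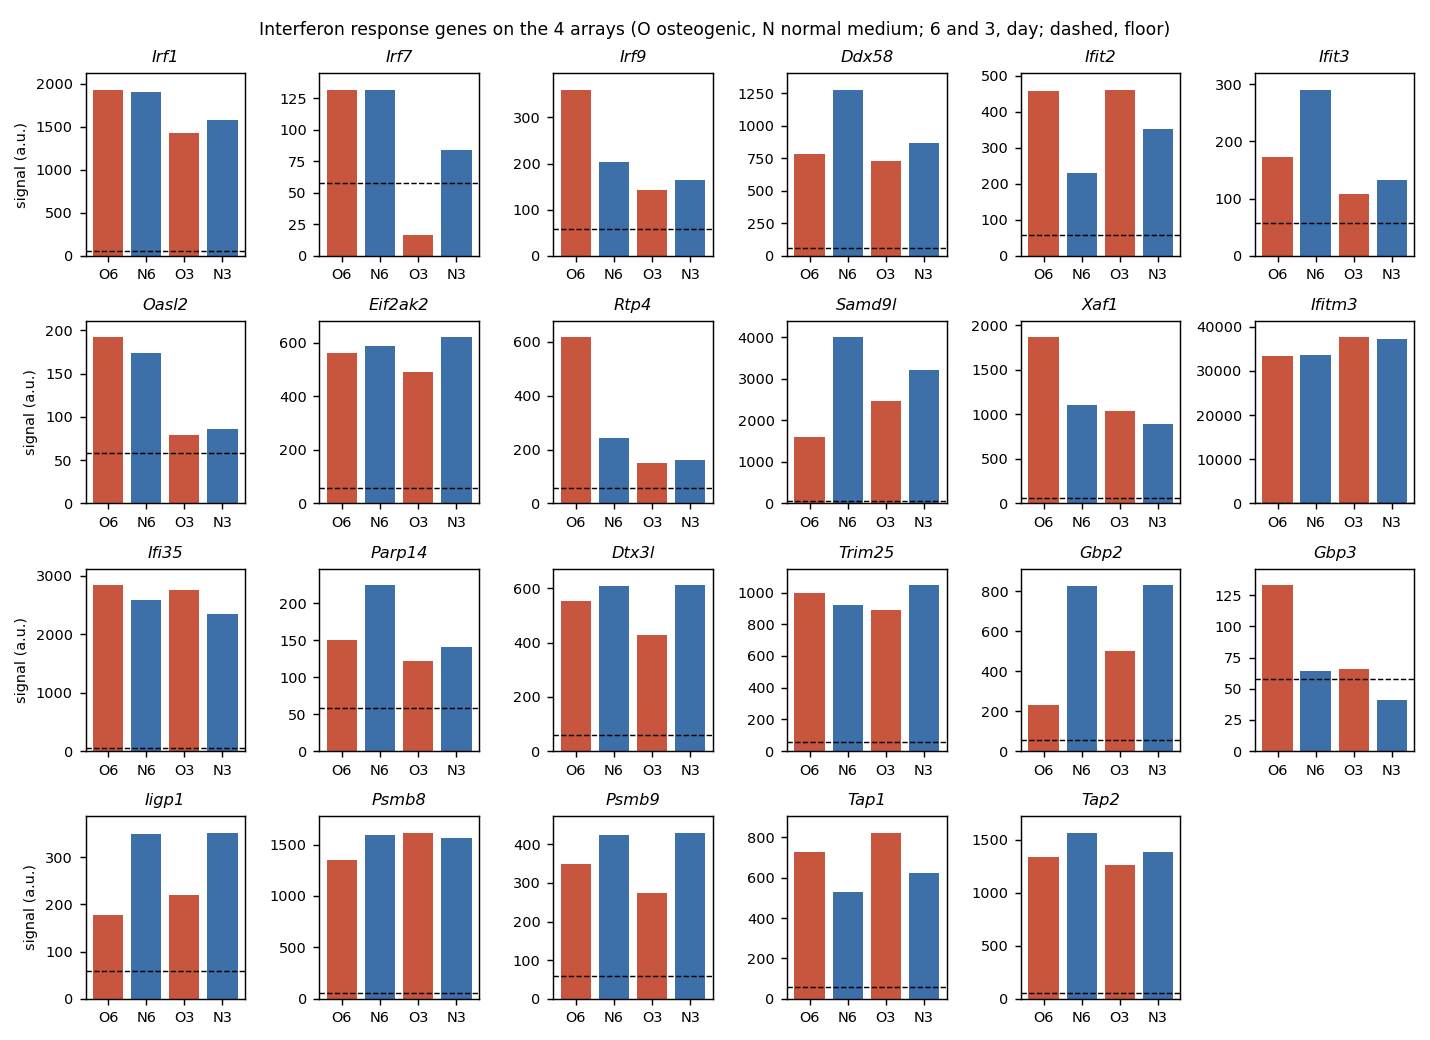
Signal (arbitrary units, linear axis from 0) of the 23 interferon response genes named by rule, on the osteogenic day 6 (O6), normal day 6 (N6), osteogenic day 3 (O3) and normal day 3 (N3) arrays, 1 bar per array, with no error bars because there was 1 array per group; the dashed line is the floor of 57.8. Rtp4 stood at 615 on the osteogenic day 6 array against 244 in normal medium, Gbp2 at 232 against 824, and Oasl2 was higher on both day 6 arrays than on both day 3 arrays.

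The clearest common movement of the list was with time, in both media. In osteogenic medium the day 6 array lay above the day 3 array for 24 of 32 measured members (75%, against 49.9% of all measured genes), with a median log2 difference of 0.40 against -0.0012 over all genes. In normal medium 21 of 30 members lay above zero (70%, against 47.7% of all genes), with a median of 0.26 against -0.015. Both day 6 arrays were above both day 3 arrays for 15 of 32 members (46.9%), against a background of 13.8% of all measured genes, and both were below for 1, Ifitm3, against a background of 16.2%. The 15 were Irf1, Irf7, Irf9, Stat2, Ifit1, Ifit3, Oasl2, Ifih1, Bst2, Parp9, Parp14, Igtp, Rtp4, Xaf1 and Adar. In osteogenic medium 5 members were higher at day 6 by 2-fold (Rtp4, Irf9, Oasl2, Irf7 and Gbp3; background 3.7%) and 1 was lower (Gbp2; background 2.62%). In normal medium 2 were higher (Ifit3 and Oasl2; background 0.741%) and 0 lower (background 0.741%). The time differences thus ran mostly upward and most stayed under 2-fold.

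**Figure D2:**
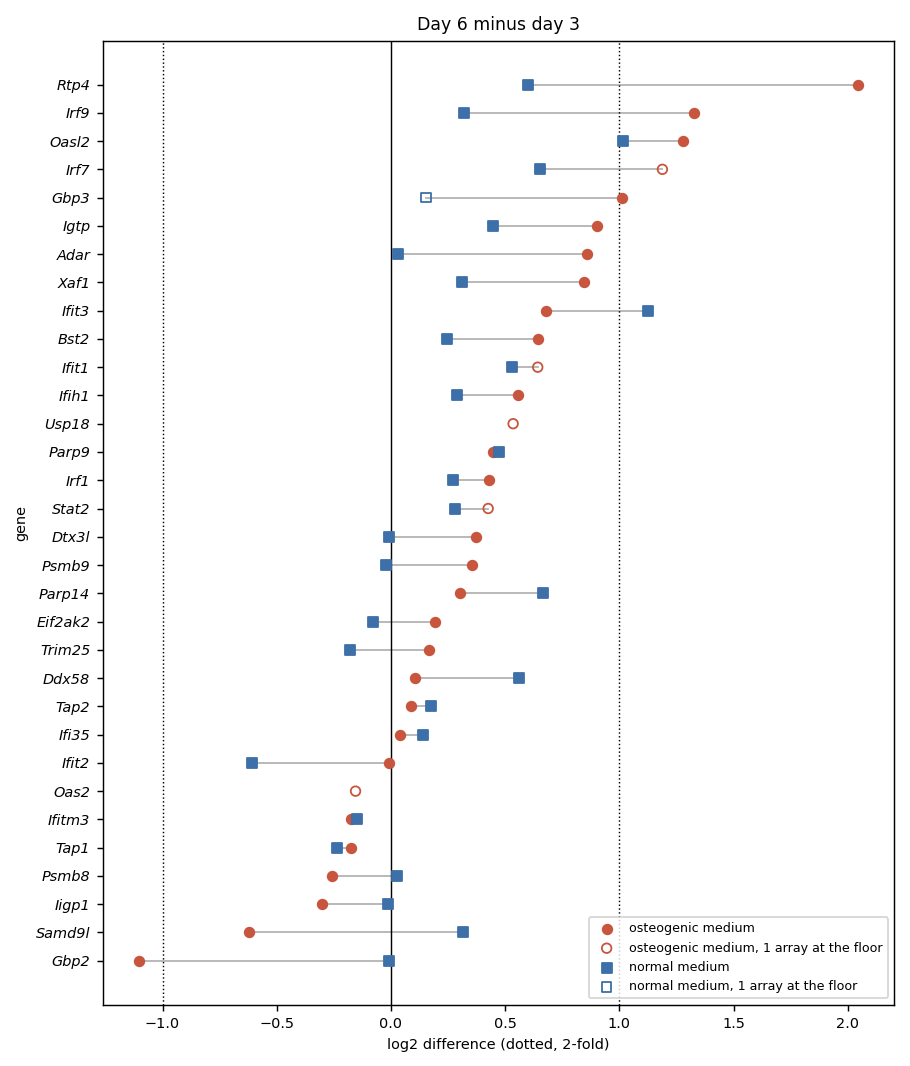
Log2 difference between day 6 and day 3 (x axis; dotted lines mark 2-fold) for each measured interferon response gene (y axis, sorted by the value in osteogenic medium), in osteogenic medium (circles) and normal medium (squares), each from 1 array per day; open symbols have 1 array at the floor. Most symbols lie right of zero, from 2.05 for Rtp4 in osteogenic medium down to -1.10 for Gbp2.

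The medium difference had another shape, with no common direction at day 6 and a small downward shift at day 3. At day 6 the median over 31 measured members was 0.0012, against 0.013 over all genes, with 16 members above and 15 below zero. At that day 2 members were higher by 2-fold in osteogenic medium, Rtp4 and Gbp3 (background 4.18%), and 2 lower, Gbp2 and Samd9l (background 2.78%). Ifit2 at 0.99 and Iigp1 at -0.97 lay just inside the threshold. At day 3 the median over 31 members was -0.19, against 0.0092 over all genes, and 11 of them lay above zero (35.5%, against 51.0% of all genes). At day 3, 0 members passed 2-fold upward (background 1.99%) or downward (background 1.59%). Both osteogenic arrays lay above both normal arrays for 4 of 32 members (12.5%, background 21.7%), namely Ifit2, Ifi35, Gbp3 and Tap1. Both lay below for 8 (25%, background 20.4%), namely Ddx58, Eif2ak2, Dtx3l, Gbp2, Iigp1, Psmb9, Tap2 and Samd9l. For Eif2ak2 this order held on the probe set used and not on its others.

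**Figure D3:**
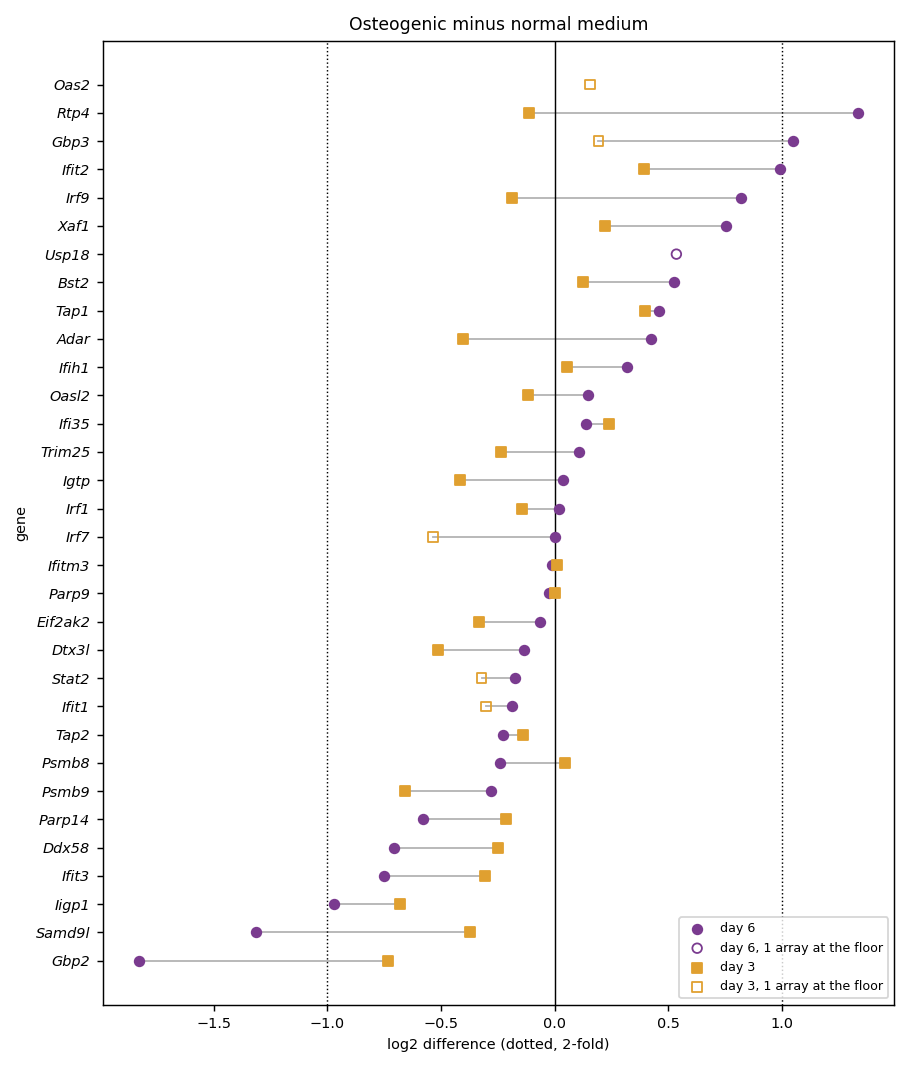
Log2 difference between osteogenic and normal medium (x axis; dotted lines mark 2-fold) for each measured interferon response gene (y axis), at day 6 (circles) and day 3 (squares), each from 1 array per medium; open symbols have 1 array at the floor. At day 6 the genes spread from -1.83 for Gbp2 to 1.34 for Rtp4, while at day 3 they lay between -0.73 and 0.40.

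The medium and day comparisons share arrays. A low value on the osteogenic day 3 array, for example, lowers the medium difference at day 3 and raises the day difference in osteogenic medium at once. The medium differences at day 6 and at day 3 come from separate pairs of arrays, as do the day differences in osteogenic and in normal medium.

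The 4 signal transducers among the members, Irf1, Irf7, Irf9 and Stat2, all lay higher at day 6 in both media. Of 10 measured JAK, STAT and IRF genes outside the list, 7 lay above zero in normal medium (70%, against 47.7% of all genes). In osteogenic medium it was 6 of 10 (60%, against 49.9%). Irf9, the DNA-binding part of ISGF3, had a signal of 360 in osteogenic and 204 in normal medium at day 6, and of 143 in osteogenic and 163 in normal medium at day 3. Its osteogenic day 6 array stood apart from the other 3, and its log2 difference between days was 1.33 in osteogenic and 0.32 in normal medium. Irf7, which amplifies the type I interferon response, had a signal of 132 on each day 6 array, 16.4 on the osteogenic day 3 array and 83.9 on the normal day 3 array. The osteogenic day 3 array was below the floor, so Irf7 was at least 2.28-fold higher at day 6 than at day 3 in osteogenic medium, and its log2 difference in normal medium was 0.65. A floor at the 60th percentile left 0.14 in each medium. Irf1, a transcription factor induced by interferon gamma, had signals of 1929 and 1906 in osteogenic and normal medium at day 6, and of 1431 and 1579 at day 3. Stat2 was close to the floor, at 77.7 and 87.7 in osteogenic and normal medium at day 6 and at 48.3 and 72.3 at day 3. At day 3 all 4 transducers lay below zero for the medium, where 51.0% of all genes lay above zero. They ranged from -0.54 for Irf7 to -0.14 for Irf1, and the values of Irf7 and Stat2 (-0.32) were bounds.

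The IFIT genes, which encode proteins that bind viral RNA and lie together on chromosome 19, did not move as one. Ifit3 had a signal of 172 in osteogenic and 290 in normal medium at day 6, and of 107 in osteogenic and 133 in normal medium at day 3. It was 2.18-fold higher at day 6 than at day 3 in normal medium and had a log2 difference of 0.68 in osteogenic medium. Ifit2 had a signal of 458 in osteogenic and 230.5 in normal medium at day 6, and of 460.3 in osteogenic and 351 in normal medium at day 3. Ifit2 was thus alike on both osteogenic arrays and lowest on the normal day 6 array, where Ifit3 was highest. Ifit1 followed Ifit3 in sign, with signals of 90.3 and 103 in osteogenic and normal medium at day 6 and of 52.1 and 71.4 at day 3. The medium differences at day 6 were 0.99 for Ifit2, -0.75 for Ifit3 and -0.19 for Ifit1.

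The windows around the starts of Ifit3 and Ifit2 are shown because these neighbours had medium differences of opposite sign. They are RefSeq sequences of GRCm38.p6, from 250 bases before to 50 after the gene start, and capitals mark matches, on either strand, to the core of the interferon-stimulated response element, GAAA, any 2 bases and GAAA again. Overlapping matches run together.
Ifit3, chr19:34583279-34583578, plus strand: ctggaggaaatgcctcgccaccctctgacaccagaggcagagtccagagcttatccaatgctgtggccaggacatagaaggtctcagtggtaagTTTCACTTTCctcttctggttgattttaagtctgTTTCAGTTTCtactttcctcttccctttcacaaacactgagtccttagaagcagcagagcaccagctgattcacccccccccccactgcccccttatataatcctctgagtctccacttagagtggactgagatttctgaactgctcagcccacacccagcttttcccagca
Ifit2, chr19:34550444-34550743, plus strand: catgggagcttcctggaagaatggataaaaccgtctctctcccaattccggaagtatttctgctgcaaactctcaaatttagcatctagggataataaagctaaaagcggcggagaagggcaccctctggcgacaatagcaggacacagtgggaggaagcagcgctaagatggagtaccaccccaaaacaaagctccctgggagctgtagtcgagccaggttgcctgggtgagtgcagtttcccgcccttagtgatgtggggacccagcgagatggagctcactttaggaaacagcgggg
Ifit3 held 2 matches, whose leftmost bases lie 156 and 122 bases before the start. Ifit2 had 2 windows in the table, of which the first is printed, and 0 matches in either. No match says only that these letters are not in this window.

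The oligoadenylate synthetases and PKR are enzymes that double-stranded RNA activates. The synthetases lead indirectly to the cutting of RNA, and PKR stops translation. The product of mouse Oasl2 belongs to the synthetase-like branch of the family. Oasl2 had a signal of 192 in osteogenic and 174 in normal medium at day 6, and of 79.1 in osteogenic and 85.7 in normal medium at day 3. Both day 6 arrays were above both day 3 arrays, by 2.43-fold in osteogenic and 2.02-fold in normal medium. A floor at the 60th percentile, above both day 3 signals, left 0.68 and 0.54 and ended both 2-fold calls. The medium differences of Oasl2 were 0.14 at day 6 and -0.12 at day 3. Eif2ak2, the PKR gene, had signals of 561 and 587 in osteogenic and normal medium at day 6, and of 491 and 619.8 at day 3. Its medium differences were -0.065 at day 6 and -0.34 at day 3. Another probe set of Eif2ak2 gave -0.095 and 0.17, and a further one -0.25 and -0.088. On neither of these did both osteogenic arrays lie below both normal arrays. Oas2 was above the floor on 1 array, osteogenic medium at day 3, with a signal of 64.4. Oas1a had signals of 13.5 to 19.7 and stayed at the floor.

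Among the cytosolic RNA sensors, Ddx58, which encodes RIG-I, had a signal of 781 in osteogenic and 1275 in normal medium at day 6, and of 726 in osteogenic and 864 in normal medium at day 3. The normal day 6 array was the highest, and the medium difference was -0.71 at day 6 and -0.25 at day 3. A second measured probe set of Ddx58 gave -0.73 and -0.47. Another was above the floor only on the osteogenic day 3 array, at 59.3, and gave at least 0.036 at day 3. Ifih1, which encodes MDA5, had signals of 232 and 186 in osteogenic and normal medium at day 6, and of 158 and 152 at day 3. Dhx58, which encodes the related regulator LGP2, was at the floor.

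The other antiviral effectors included Rtp4 and Samd9l, both past 2-fold between media at day 6. Rtp4, an interferon-induced chaperone of receptors, had a signal of 615 in osteogenic and 244 in normal medium at day 6, and of 149 in osteogenic and 161 in normal medium at day 3. The osteogenic day 6 array stood far above the other 3, 2.52-fold above normal medium at day 6 and 4.13-fold above osteogenic medium at day 3. Rtp4 had a second probe set, which was at the floor on all 4 arrays, so its difference rests on 1 probe set, and with the mean of both it was 0.67 between media and 1.02 between days. Samd9l, a growth-restraining antiviral gene, ran the other way, with signals of 1606 in osteogenic and 3989 in normal medium at day 6 and of 2474 in osteogenic and 3208 in normal medium at day 3. It was 2.48-fold lower in osteogenic medium at day 6, and both osteogenic arrays were below both normal ones.

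Xaf1, which encodes an antagonist of the apoptosis inhibitor XIAP, had a signal of 1863 in osteogenic and 1104 in normal medium at day 6, and of 1037 in osteogenic and 890 in normal medium at day 3. Adar, which encodes the enzyme that edits adenosine in double-stranded RNA, had a signal of 730.3 in osteogenic and 544 in normal medium at day 6, and of 403 in osteogenic and 533 in normal medium at day 3. Its medium difference changed sign between the days, 0.42 at day 6 and -0.40 at day 3, and a second probe set gave 0.24 and -0.21. Bst2, which encodes tetherin, a protein that holds budding virus at the cell surface, had signals of 518 and 360 in osteogenic and normal medium at day 6, and of 331 and 304 at day 3. Ifitm3, a membrane protein that blocks virus entry and whose relative Ifitm5 is an osteoblast gene, had signals of 33269 and 33561 in osteogenic and normal medium at day 6 and of 37529 and 37227 at day 3. Its media thus differed by -0.013 and 0.012, and saturation of signals this bright was not tested. Ifi35, a cytosolic interferon-induced protein, had signals of 2836 and 2581 in osteogenic and normal medium at day 6 and of 2759 and 2338 at day 3, with both osteogenic arrays above both normal ones by 0.14 at day 6 and 0.24 at day 3.

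Enzymes of ISG15, ubiquitin and ADP-ribose had no member past 2-fold in any comparison (background 0.741% to 4.18% each way). Usp18, which removes ISG15 from proteins and damps the type I receptor, was above the floor only in osteogenic medium at day 6, with a signal of 83.8 against 57.7 in normal medium, at the floor, and 38.2 and 32.95 in osteogenic and normal medium at day 3. Parp9, which works in a complex with Dtx3l, had signals of 794 and 809 in osteogenic and normal medium at day 6, and of 583 and 582 at day 3, so that it followed the day and not the medium. The ubiquitin ligase gene Dtx3l had signals of 555 and 609 in osteogenic and normal medium at day 6, and of 429 and 612 at day 3. Parp14, an ADP-ribosyltransferase gene, had signals of 150.2 and 224 in osteogenic and normal medium at day 6, and of 122 and 141 at day 3. Trim25, the ubiquitin ligase that acts on RIG-I, had signals of 996 and 924 in osteogenic and normal medium at day 6, and of 888 and 1047 at day 3. All 5 measured members of this group lay above zero between days in osteogenic medium, from 0.17 to 0.54 (49.9% of all genes lay above zero), and in normal medium 2 lay above and 2 below. With the mean of its probe sets Trim25 was at -0.04 in osteogenic medium.

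The interferon-induced GTPases, which attack the vacuoles of intracellular pathogens, ranged from -1.83 to 1.05 between media at day 6. Gbp2, a guanylate-binding protein, had a signal of 232 in osteogenic and 824 in normal medium at day 6, and of 498 in osteogenic and 829 in normal medium at day 3. The normal arrays were alike and both osteogenic arrays lay below them, by 3.55-fold at day 6 and 1.66-fold at day 3. That probe set is of the type that may cross-hybridise with related genes, and the other probe set of Gbp2 gave 389 and 722 in osteogenic and normal medium at day 6 and 581 and 617 at day 3. Its medium differences were -0.89 and -0.088, so both probe sets had the same sign and 1 of them passed 2-fold. Between days in osteogenic medium they gave -1.10 and -0.58. Gbp3, on the same chromosome, had a signal of 133 in osteogenic and 64.3 in normal medium at day 6, and of 66.1 in osteogenic and 41.0 in normal medium at day 3, where the last lay below the floor. Gbp3 was 2.07-fold higher in osteogenic medium at day 6, from a normal medium signal close to the floor, and a floor at the 60th percentile left a difference of 0.15.

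The Gbp3 and Gbp2 windows are printed because both genes held the response element close to the start while their medium differences at day 6 were 1.05 and -1.83. Both are RefSeq sequences of GRCm38.p6, and capitals mark the same core on either strand.
Gbp3, chr3:142559794-142560093, plus strand: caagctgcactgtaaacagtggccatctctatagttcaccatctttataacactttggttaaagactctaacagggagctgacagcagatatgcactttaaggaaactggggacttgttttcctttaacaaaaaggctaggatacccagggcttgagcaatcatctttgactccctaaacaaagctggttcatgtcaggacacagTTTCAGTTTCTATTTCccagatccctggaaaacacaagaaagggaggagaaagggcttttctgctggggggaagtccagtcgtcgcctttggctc
Gbp2, chr3:142620413-142620712, plus strand: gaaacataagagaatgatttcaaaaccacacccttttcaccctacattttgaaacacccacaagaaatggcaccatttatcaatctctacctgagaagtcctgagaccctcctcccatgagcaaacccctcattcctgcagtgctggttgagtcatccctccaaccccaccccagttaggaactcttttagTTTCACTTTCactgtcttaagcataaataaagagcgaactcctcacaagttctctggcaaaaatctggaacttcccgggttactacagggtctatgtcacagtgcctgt
In Gbp3 the leftmost bases of 2 overlapping matches lie 45 and 39 bases before the start, and a second window of Gbp3 held 0. In Gbp2 the leftmost base of 1 match lies 59 bases before the start. The order of the protein-coding genes here in RefSeq is Gbp5, Gbp7, Gbp3, Gbp2b and Gbp2.

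The immunity-related GTPases Iigp1 and Igtp also parted. Iigp1 had a signal of 178 in osteogenic and 349 in normal medium at day 6, and of 219.6 in osteogenic and 352 in normal medium at day 3. Both osteogenic arrays were below both normal arrays, by 1.96-fold at day 6 and 1.60-fold at day 3. The second probe set of Iigp1, with 79.1 and 231 in osteogenic and normal medium at day 6 and 82.8 and 170.1 at day 3, gave larger log2 differences of -1.55 and -1.04. Igtp had signals of 574 and 559 in osteogenic and normal medium at day 6, and of 307 and 410 at day 3. It lay higher at day 6 in both media, by 0.90 in osteogenic and 0.45 in normal medium. Outside the list, Gbp6 and Gbp7, further guanylate-binding proteins, were also higher at day 6 than at day 3 in osteogenic medium. Gbp6 had 480 and 495 in osteogenic and normal medium at day 6 and 108 and 201 at day 3, and was 4.47-fold higher at day 6 than at day 3 in osteogenic and 2.47-fold higher in normal medium. Its second probe set gave log2 differences of 0.79 and 1.31. Gbp7 had 144 and 167 in osteogenic and normal medium at day 6 and 63.9 and 161 at day 3, where its osteogenic array was 2.52-fold lower. On the second probe set of Gbp7 neither 2-fold call held, with -0.997 between media at day 3 and 0.59 between days in osteogenic medium.

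Genes of the immunoproteasome and of peptide transport, which load major histocompatibility complex class I molecules, had no member past 2-fold in any comparison (background 0.741% to 4.18% each way). Their medium differences at day 3 ran from -0.66 for Psmb9 to 0.40 for Tap1. Psmb8, a catalytic subunit of the immunoproteasome, had signals of 1349 and 1594 in osteogenic and normal medium at day 6, and of 1614 and 1564 at day 3. Psmb9, another such subunit, had 348 and 424 in osteogenic and normal medium at day 6, and 273 and 429.9 at day 3, with the osteogenic day 3 array lowest. Tap1, a subunit of the peptide transporter, had 729 and 530.2 in osteogenic and normal medium at day 6, and 823 and 625 at day 3, so both osteogenic arrays were above both normal arrays, by 0.46 and 0.40. Its partner Tap2 had 1341 and 1568 in osteogenic and normal medium at day 6, and 1260.0 and 1388 at day 3, with differences of -0.23 and -0.14. Of 17 measured genes of a wider list of class I and II presentation, 0 passed 2-fold between media at either day on the probe set used (background 4.18% higher and 2.78% lower at day 6, 1.99% and 1.59% at day 3). Other probe sets did pass, 1 of H2-K1 at day 6 (1.07) and 1 of H2-D1 at both days (1.16 at day 6 and 1.49 at day 3). In that list H2-K1, a class I heavy chain, had the largest medium difference at day 6 (0.79), with 3471 in osteogenic against 2001 in normal medium. Tapbp, which bridges the transporter and class I molecules, stood at -0.57. The class II genes H2-Aa, H2-Ab1 and H2-Eb1 and their activator Ciita were at the floor on all 4 arrays. Cd74 of the same list was above the floor on all 4, with signals of 213 to 259.

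**Figure D4:**
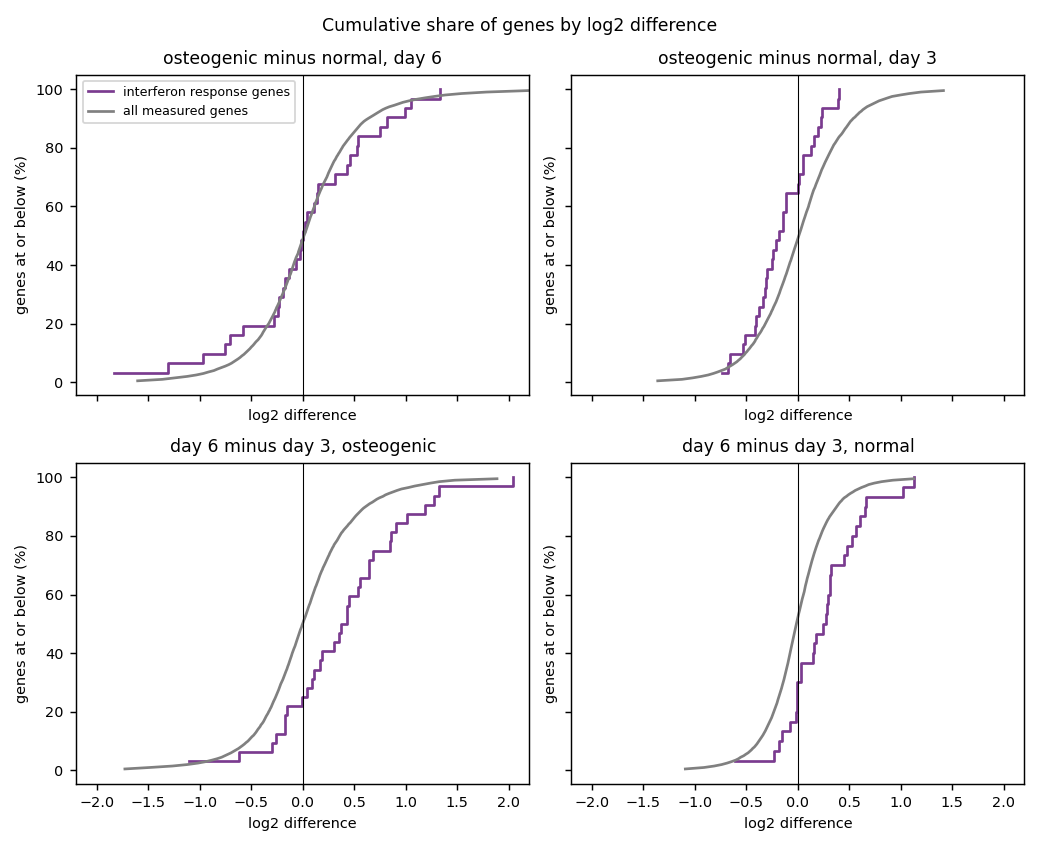
Cumulative share of genes (y axis, %) by log2 difference (x axis) for the measured interferon response genes (steps) and for all measured genes (smooth line) in each comparison of 2 arrays. The steps lie right of the line in both day comparisons (medians 0.40 and 0.26), left of it at day 3 between media (median -0.19) and around it at day 6 (median 0.0012).

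Genes of the pathway outside the list were described from lists of their own. Of 39 measured other interferon-stimulated genes at day 6, 2 were higher in osteogenic medium, Isg20 and Phf11d (background 4.18%), and 1 lower, Ube2l6 (background 2.78%). Their median was -0.21, against 0.013 over all genes. Isg20, an exonuclease of single-stranded RNA, had 869 in osteogenic and 299 in normal medium at day 6, and 329 and 279 at day 3, a 2.91-fold medium difference at day 6. Ube2l6, the conjugating enzyme for ISG15, had 58.2 in osteogenic and 177 in normal medium at day 6, and 71.1 and 163 at day 3. Both osteogenic arrays of Ube2l6 were near the floor and below both normal arrays, by 3.04-fold and 2.29-fold, and it had 1 probe set. At day 3, 1 of 41 was higher, Ifi203 (1.16, background 1.99%), and 2 were lower, Gbp7 and Ube2l6 (background 1.59%). The median at day 3 was -0.14, against 0.0092 over all genes. Between days in normal medium 2 of 40 were higher, Tnfsf10 (1.55) and Gbp6 (2.47-fold), and 0 lower (background 0.741% each way). The median there was 0.091, against -0.015 over all genes, and 24 lay above zero (60%, against 47.7% of all genes). In osteogenic medium 4 of 40 were higher at day 6 than at day 3, Gbp6 (2.16), Isg20 (1.40), Phf11d (1.27) and Gbp7 (1.17), and 1 lower, Ifi27l2a (-1.79). The background shares there were 3.7% and 2.62%. The median in osteogenic medium was 0.21, against -0.0012 over all genes, and 28 lay above zero (70%, against 49.9% of all genes). Another probe set of Tnfsf10 gave 0.33 between days in normal medium.

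Upstream of these genes few passed 2-fold. In the list of JAK, STAT and IRF genes, 1 of 9 measured members was higher in osteogenic medium at day 6, the kinase gene Tyk2 (1.03; background 4.18%), with 336 in osteogenic and 164 in normal medium, against 193 and 228 at day 3. Jak1 stood at -0.69 and Jak2 at 0.59 at day 6, and Stat3 at 0.54. Among sensors and adaptors of nucleic acids, Ddx41, a helicase reported as a DNA sensor, was higher in osteogenic medium at both days, 2.35-fold at day 6 and 2.12-fold at day 3, with 784 and 333 in osteogenic and normal medium at day 6 and 739 and 349 at day 3. It was the 1 member of 14 measured at day 6 (background 4.18%), and of 12 at day 3 (background 1.99%), to be higher, and Tlr3, the receptor for double-stranded RNA, was at least 2.28-fold lower in osteogenic medium at day 3, where its signal was 11.4, against 132 in normal medium. A second probe set of Tlr3 was at the floor on both day 3 arrays and gave -0.58 at day 6. Between days in osteogenic medium Tlr3 was at least 2.41-fold higher at day 6 (background 3.7% higher and 2.62% lower). Cgas, the cytosolic DNA sensor, was lower at day 6 than at day 3 in osteogenic medium by 2.04-fold, with -1.80 on its second probe set. The kinase gene Ikbke was higher at day 6 in normal medium by at least 2.59-fold, the 1 of 12 measured there (background 0.741%). Of 13 measured negative regulators 0 passed 2-fold between media at either day, near the share over all genes. That background was 4.18% higher and 2.78% lower at day 6, and 1.99% and 1.59% at day 3. Among them Socs3, an inhibitor of cytokine receptors, was at 0.48 at day 6 and Socs1 at 0.05.

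Of the macrophage markers above the floor, Fcer1g was higher (1.23) and Lyz2 lower (-1.24) in osteogenic medium at day 6, and Csf1r was at -0.11. At day 3 these were 0.53, -0.063 and -0.52. The other probe sets of Csf1r differed in sign at day 6, at -0.65 and 0.36, and gave -0.65 and -0.52 at day 3. The part of such transcripts in the medium differences above was not tested. The other 7 of the 10 markers, Ptprc, Adgre1, Itgam, Cd68, Tyrobp, Itgax and Siglech, were at the floor on every array.

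**Figure D5:**
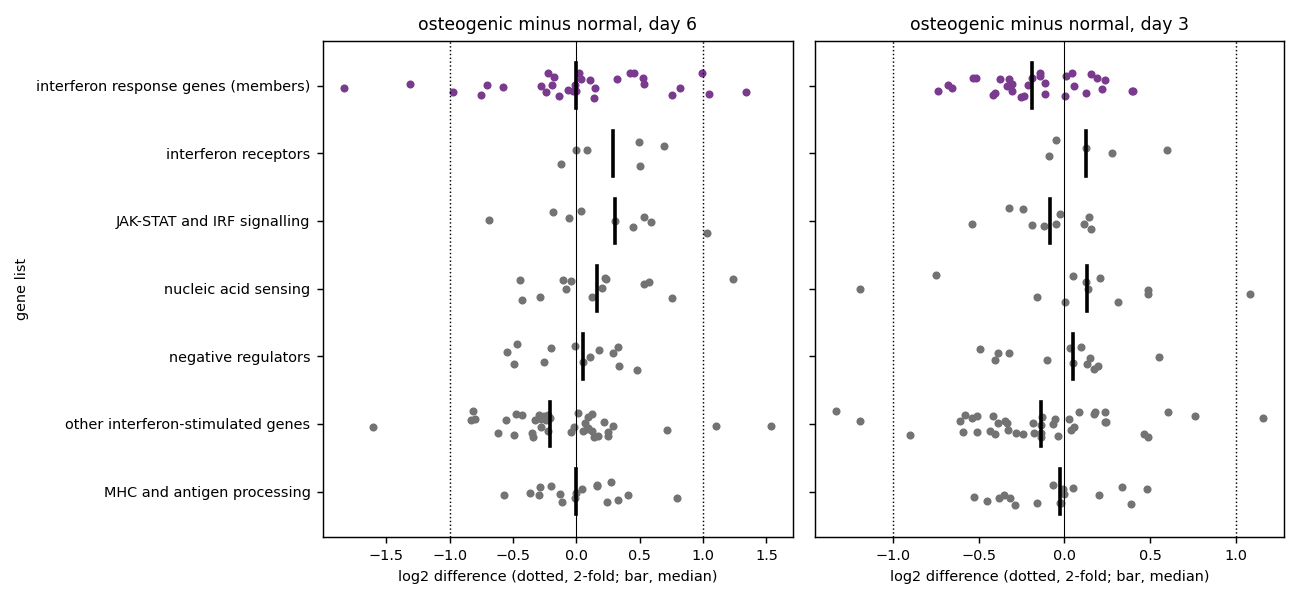
Log2 difference between osteogenic and normal medium (x axis; dotted lines mark 2-fold) at day 6 (left) and day 3 (right) for each measured gene (points, spread vertically for legibility) of the interferon response list and of 6 other lists (y axis), with the median as a bar. The medians of the interferon response genes were 0.0012 and -0.19, and those of the other interferon-stimulated genes -0.21 and -0.14.

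A promoter window was given for 29 of the 39 members. The response element core occurred in the windows of 14 of them (48.3%), against 3.99% of 27025 genes in the table, and TTCNNNGAA, the gamma-activated site, which reads the same on both strands, in those of 10 (34.5%), against 9.55%. Genes with several windows count as holding a motif if any window does, and the members were listed for their known response to interferon. Between days in normal medium, the 11 measured members with the response element had a median log2 difference of 0.28 and the 14 without it 0.086. In osteogenic medium these medians were 0.55 and 0.36. Between media they were -0.065 and 0.12 at day 6, and -0.30 and -0.17 at day 3. The ranges overlapped in every comparison, and a match is a description of letters, not of a bound site.

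All 4 arrays were also fitted together with medium and day as additive terms in limma, which leaves 1 residual degree of freedom and counts a medium difference that varies by day as error. With Benjamini-Hochberg adjustment over 12503 genes, 0 of 32 members and 0 of all genes passed 5% for either term (background 0% for both). The lowest adjusted p of a member was 0.242 for the medium (Iigp1, log2 effect -0.83, SE 0.184) and 0.674 for the day (Oasl2, log2 effect 1.15, SE 0.182), from limma. Without adjustment, limma gave p under 0.05 for the day in 9 members, all higher at day 6 (background 3.76% of genes higher and 3.59% lower), namely Ifit1, Ifit3, Igtp, Irf7, Irf9, Oasl2, Parp9, Rtp4 and Xaf1. For the medium it did so in 5, of which Ifit2 was higher (background 7.43%) and Gbp2, Ifit3, Iigp1 and Samd9l lower (background 6.46%). The members of the list share regulators and are not independent of each other.

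Agreement between probe sets differed by comparison. For the medium difference at day 6, 10 of 11 members with more than 1 measured probe set had the same sign in all of them, and at day 3 it was 7 of 10. For the day difference this held for 8 of 11 in osteogenic and 4 of 10 in normal medium.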

How the data were processed

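Total RNA from 4 cultures of MC3T3-E1 cells was made into cRNA with a 3′ IVT kit and put on Mouse Genome 430 2.0 arrays, 1 per group, per the labels' protocols. The authors deposited 1 linear intensity per probe set and array, and detection calls were not used here. The deposited intensity averaged 499.8 on each array once 2% of probe sets at either end were trimmed. The probe summary method is not given in the sources used here. The labels give no replicates, and the number of arrays limits the precision.

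Symbols came from GEO's platform annotation (34945 probe sets with 1 symbol, 932 with several, 9160 with none), with older symbols matched by Entrez ID to RefSeq. Arrays were scaled to a common 75th percentile by factors of 0.988 to 1.02, a floor was set at the pooled 50th percentile, and log2 was taken. A gene was its probe set of highest mean, and counted as measured when 1 or both arrays compared exceeded the floor. Steps ran in Python 3.11.15 and limma 3.58.1. On simulated data for the medium term over 12503 genes, limma recovered 92 of 100 genes altered by a log2 change of 1 and 100 of 100 altered by 3. Another 74 unaltered genes passed, a larger share of the calls than the 5% set. The simulated noise was Gaussian, drawn from the fitted variances with no day difference, whereas the deposited arrays gave 0 calls. The recovery is therefore no measure of what the fit can find on these arrays. Genes given with values on all arrays were those past 2-fold, the 6 brightest, and the 5 highest and 5 lowest of both medium comparisons and of the day comparison in normal medium, with others added to complete a role. The members and lists were chosen with earlier results of these data known, and the counts of arrays that do not overlap were added after the data were seen.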

Additional observations from a re-analysis of the deposited data

Results flagged for a closer look

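In the pairs of arrays at the 2 days, some medium differences had opposite signs and lay at least 1 log2 unit apart. With 1 array per group these changes were not tested. Rtp4 was at 1.34 at day 6 and -0.11 at day 3, a change of 1.45. Irf9 was at 0.82 and -0.19, a change of 1.01. Outside the list, Tyk2 changed by 1.27 and Tlr3 by 1.39, and the value of Tlr3 is set by its osteogenic day 3 signal of 11.4, below the floor. Ifi203 changed by -1.59, from a normal day 3 signal of 67.4 close to the floor, and Ifi27l2a by -1.10.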

How the results depend on the processing

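The alternatives were quantile normalisation, the deposited values without further scaling, a floor at the 40th or the 60th percentile, a pseudocount of 16 instead of a floor, neither floor nor filter, the mean of all probe sets of a gene, probe sets with possible cross-hybridisation left out, and, for limma, a trended prior. A count was taken as moved when it differed by more than 1.5 times, and a log2 value when it shifted by at least the probe-set SD averaged over the comparisons. By that measure 14 of the list's summary values and counts moved and 108 did not, and 25 values of single genes moved and 707 did not. Single genes changed sign 19 times, in 11 values of at most 0.19 in size and 0 past 2-fold, and the day 6 medium median, 0.0012, did so under 3 alternatives. The median of the members ranged from -0.01 to 0.01 for the medium at day 6, from -0.21 to -0.14 for the medium at day 3, from 0.25 to 0.43 for the day in osteogenic medium and from 0.18 to 0.28 for the day in normal medium. The members higher in osteogenic medium at day 6 were 1 in place of 2 under quantile normalisation, the 60th percentile floor, the pseudocount and the mean of probe sets. Those lower in osteogenic medium at day 3 were 1 in place of 0 under the 40th percentile floor, the pseudocount and the probe sets left out, and 2 with neither floor nor filter. Between days in osteogenic medium, 2 in place of 5 were higher with the 60th percentile floor, and 0 in place of 1 were lower with the mean of probe sets and with probe sets left out. Between days in normal medium, 1 in place of 2 was higher with the 60th percentile floor and the pseudocount, and 1 in place of 0 was lower with neither floor nor filter. A higher floor cuts differences of genes near it by construction; the cause of the other moves was not tested. The limma fit, with day as a term beside the medium, compared media within days. The labels give no replicate numbers, and with 1 array per group no replicate could be left out. Signal near the floor limits what can be said of Irf7, Stat2, Ifit1, Oas2, Oasl2, Usp18 and Gbp3.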
